A study of Mus musculus with 18 samples.

Results

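The genes described here are 10 genes recurrently mutated in human myeloid malignancies that act on DNA methylation or chromatin: Tet2, Dnmt3a, Asxl1, Idh1, Idh2, Bcor, Kmt2a, Rad21, Smc3 and Ctcf. They were chosen by name, among 18194 genes on the array, and all 10 matched. They are represented by 26 probesets that are annotated to that gene alone. RNA was measured in the bone marrow of 18 C57Bl6 mice on Affymetrix 3' arrays, 1 array per mouse, each described as a biological replicate. The groups were 6 CCAT2-GT mice, labelled DRAI+, 4 CCAT2-G and 4 CCAT2-T mice, labelled DRAI- (8 in all), and 4 WT mice. Per the labels, mice were engineered to overexpress 1 allele, G or T, of the long non-coding RNA CCAT2 throughout the body; what CCAT2-GT mice carry is given by the name alone. DRAI is not spelled out, the labels used here name no promoter, founder line, age or sex, and no probeset carries the name CCAT2. Myeloid malignancy is the subject of the series by its title, and the comparisons ask whether marrow RNA of these drivers differed between the groups.

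As background, DNMT3A adds methyl groups to cytosines of DNA that was not methylated before, and TET2 starts their removal by oxidising 5-methylcytosine with 2-oxoglutarate as a cosubstrate. IDH1, in the cytosol, and IDH2, in mitochondria, make 2-oxoglutarate from isocitrate, and their cancer mutants make 2-hydroxyglutarate, which inhibits TET2. ASXL1 partners the histone H2A deubiquitinase BAP1, BCOR is a core of a variant Polycomb complex that ubiquitinates the same histone, and KMT2A (MLL1) methylates histone H3 and keeps Hox genes active in blood stem cells. RAD21 and SMC3 are subunits of the cohesin ring, which extrudes chromatin loops that CTCF stops. In patients most of these genes are hit by mutation, which an expression array does not read.

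The tissue carried the RNA of marrow. S100a8 of neutrophils (mean log2 level 13.8), the red cell anion exchanger Slc4a1 (12.2), the granule enzyme Mpo (12.1), Pf4 of platelets (10.0) and the B-cell receptor chain Cd79a (7.17) were all measured. Some arrays stood apart in ways that no label records. The spread of all probesets, as interquartile range, was 2.90 to 3.07 on 5 arrays (CCAT2-G replicate 1, CCAT2-T replicates 1 and 2, WT replicates 1 and 2), called narrow below, and 3.15 to 3.36 on the other 13. No CCAT2-GT array was narrow. Xist, the non-coding RNA of X inactivation, was at 10.7 to 12.0 in 4 mice and at most 4.05 in the other 14. The 4 were CCAT2-GT replicates 2, 3 and 5 and CCAT2-T replicate 3. In them, RNA of Eif2s3y, which lies on the Y chromosome, reached only 2.14 to 2.32. The other 14 had 6.96 to 7.93 for this gene. By both RNAs the 4 mice are female and the other 14 male. No WT or CCAT2-G mouse is among the 4, so sex was not balanced between the groups. The mean log2 level of stroma, bone and endothelial markers was highest in CCAT2-GT replicates 6 and 4 and WT replicate 4. In a bulk sample, fewer cells of a type and less RNA per cell cannot be told apart.

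**Figure D1:**
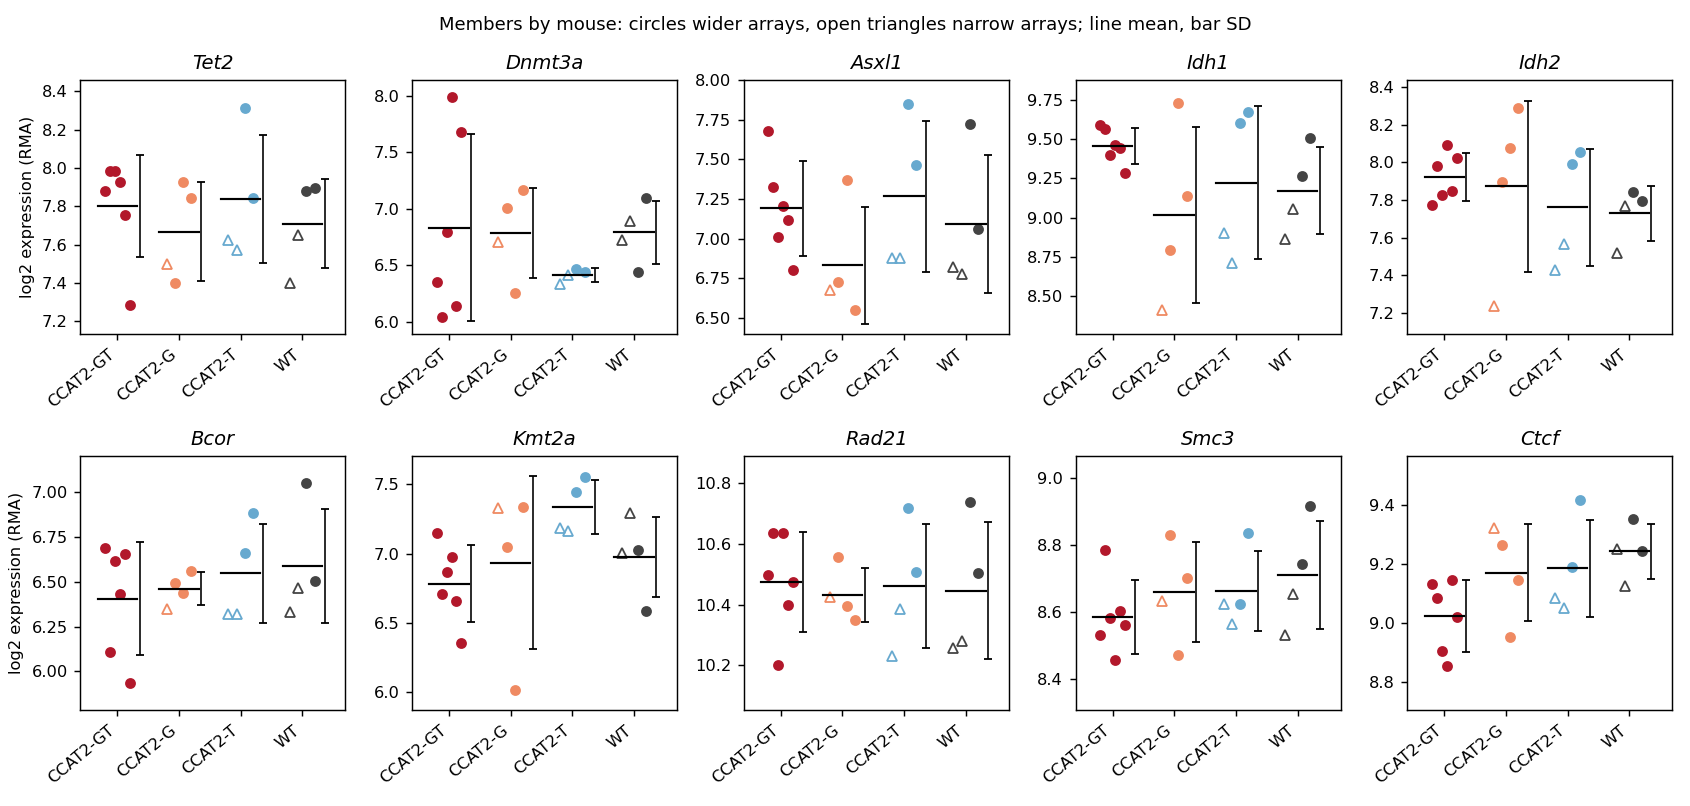
Log2 expression of the 10 genes, 1 point per mouse, by genotype (CCAT2-GT n = 6, the others n = 4 each); lines are means, bars SD, and open triangles the 5 narrow arrays. The DRAI+, DRAI- and WT ranges overlap for every gene, and Ctcf lies lowest in CCAT2-GT mice, with a mean of 9.02.

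None of the 10 genes passed in any comparison. In limma fits over 14505 genes with Benjamini-Hochberg adjustment, adjusted p was 1.00 for all of them in DRAI+ against WT, 0.999 for DRAI- minus WT and 0.547 to 0.931 in DRAI+ against DRAI-. No other gene passed either (0% of 14505 in each of the 3 comparisons). At an unadjusted p under 0.05, 1 of the 10 genes was counted in DRAI+ against WT, against 2.63% of all genes (382 genes); it was lower, as were 1.45% of all genes (211 genes). The number was 0 of 10 in DRAI- against WT, against 1.36% (197 genes), and 0 of 10 in DRAI+ against DRAI-, against 9.57% (1388 genes). The ranges of the groups overlapped for all 10 genes in all 3 comparisons, while they did not for 0.751%, 0.062% and 0.0965% of all genes. The 3 comparisons share mice, so their values are not independent of each other.

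The intervals show how large a difference these arrays leave possible for the brightest probeset of each gene. Across the 10 genes and 3 comparisons, the 95% confidence intervals lay between 0.566-fold and 1.73-fold, and both extremes belonged to Dnmt3a. For Rad21, Smc3 and Ctcf they lay between 0.741-fold and 1.21-fold. Other probesets can lie outside them. The dimmest Rad21 probeset differed by 0.34 in DRAI+ against DRAI-, above the log2 interval of the brightest, -0.18 to 0.23. The median log2 difference of the 10 genes was 0.04 for DRAI+ minus WT, -0.05 for DRAI- minus WT and 0.04 for DRAI+ minus DRAI-, beside medians over all genes of -0.00171, 0.000793 and -0.00716. Of the 10 genes, 6 were higher in DRAI+ than in WT mice (49.5% of all genes were), 4 in DRAI- than in WT mice (50.2%) and 6 in DRAI+ than in DRAI- mice (48.3%).

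**Figure D2:**
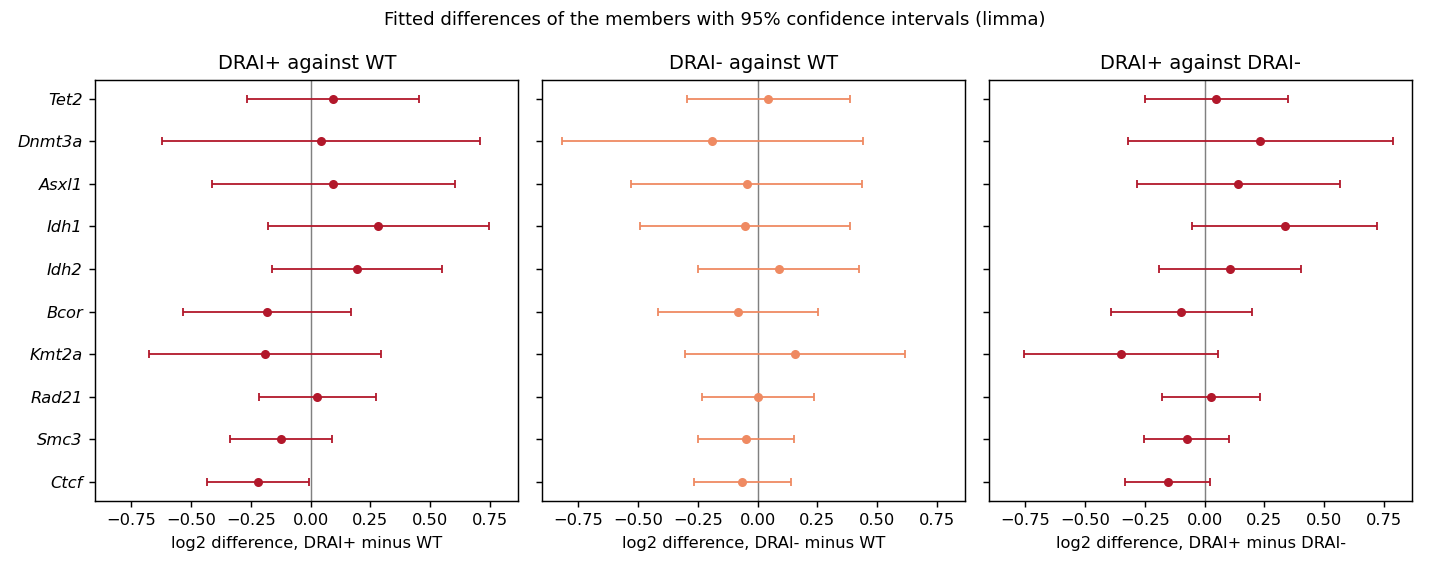
Fitted log2 differences of the 10 genes with 95% confidence intervals (limma) in DRAI+ minus WT, DRAI- minus WT and DRAI+ minus DRAI- mice (6 DRAI+, 8 DRAI- and 4 WT mice). The interval of Ctcf in DRAI+ minus WT, -0.43 to -0.00497, is the only one of the 30 that leaves out 0 before adjustment.

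Dnmt3a, the de novo methyltransferase, varied most between mice. In CCAT2-GT mice its log2 level was 6.04 at the lowest, 6.57 at the median and 7.99 at the highest. It was 6.71, 7.01, 6.26 and 7.17 in CCAT2-G replicates 1 to 4, 6.33, 6.41, 6.47 and 6.44 in CCAT2-T replicates, and 6.72, 6.89, 6.44 and 7.10 in WT replicates. The high values were those of CCAT2-GT replicates 4 (7.99) and 6 (7.68), above every other mouse, while CCAT2-GT replicates 2 and 5 (6.04 and 6.14) were below every other mouse. The difference was 0.04 (SE 0.32) for DRAI+ minus WT, -0.19 (SE 0.30) for DRAI- minus WT and 0.23 (SE 0.27) for DRAI+ minus DRAI-. Without CCAT2-GT replicate 4 the last value was 0.00194, and without the 3 stroma-rich arrays it was -0.27. Leaving out the 4 arrays with high Xist gave 0.72, a setting that keeps only replicates 1, 4 and 6 of the CCAT2-GT mice. Replicates 4 and 6 are the mice with the highest Dnmt3a, so 0.72 does not show an effect of sex. All 5 Dnmt3a probesets were higher in DRAI+ than in DRAI- mice, by 0.12 to 0.37. They vary together over the 18 mice, with Pearson's r of 0.89 to 0.94 between the brightest and the other 4. The genes most like Dnmt3a within genotypes, of 14504 compared, were the tropomyosin Tpm4 (r = 0.97), Pcp4l1 (r = 0.96) and the integrin subunit Itga6 (r = 0.95).

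Tet2, the dioxygenase that oxidises 5-methylcytosine, gave differences of at most 0.09 between DRAI+, DRAI- and WT mice. On the log2 scale it was 7.28 at the lowest, 7.90 at the median and 7.98 at the highest in CCAT2-GT mice, 7.40 to 7.93 in CCAT2-G, 7.57 to 8.31 in CCAT2-T and 7.40 to 7.90 in WT mice. The lowest of all was CCAT2-GT replicate 6 and the highest CCAT2-T replicate 3. The difference was 0.09 (SE 0.17) for DRAI+ minus WT, 0.04 (SE 0.16) for DRAI- minus WT and 0.05 (SE 0.14) for DRAI+ minus DRAI-. The dimmer of its 2 probesets followed the brighter one over mice (r = 0.87) and differed by -0.01 in DRAI+ against WT. Most like Tet2 within genotypes were Zc3h7a (r = 0.93), Ist1 (r = 0.92) and Rrnad1 (r = 0.92).

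Of 12 measured partners of these enzymes, writers, erasers and readers of DNA methylation, 0 passed in each comparison. In DRAI+ against WT 4 were higher and 8 lower, with a median log2 difference of -0.07. The 2 of smallest p were Tet3 at 0.19 (SE 0.11) and the maintenance methyltransferase Dnmt1, averaging 9.41 ± 0.15 (SD, n = 6) in DRAI+ marrow, against 9.53 ± 0.08 (SD, n = 4) in WT marrow. In DRAI- against WT 6 were higher and 6 lower (median -0.00363), with Tet3 at 0.13 (SE 0.10) and Dnmt3b at 0.15 (SE 0.13). In DRAI+ against DRAI- 3 were higher and 9 lower (median -0.06), with Dnmt1 at -0.15 (SE 0.09) and Dnmt3l, the catalytically inactive cofactor of DNMT3A, at -0.17 (SE 0.12). Dnmt3l was dim, with mean log2 levels of 4.19 in DRAI+ and 4.36 in DRAI- mice.

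Idh1, the cytosolic isocitrate dehydrogenase, was even among DRAI+ mice and scattered among DRAI- mice. Its log2 level was 9.28 at the lowest, 9.45 at the median and 9.59 at the highest in CCAT2-GT mice. It was 8.41, 8.80, 9.73 and 9.14 in CCAT2-G replicates, 8.90, 8.71, 9.60 and 9.67 in CCAT2-T replicates and 8.86, 9.05, 9.27 and 9.50 in WT replicates. The SD was 0.11 among the 6 DRAI+ mice, 0.50 among the 8 DRAI- mice and 0.28 among the 4 WT mice; no test of these spreads was made. All 6 DRAI+ mice lay above the mean of the DRAI- mice and above that of the WT mice. Narrow arrays carried most of the low values, as Idh1 was at 8.41 to 9.05 on the 5 narrow arrays and at 8.80 to 9.73 on the other 13. The difference was 0.34 (SE 0.18) in DRAI+ against DRAI-, 1.26-fold, with a 95% interval of -0.05 to 0.72 (limma, unadjusted p = 0.0848, adjusted p = 0.547). It was 0.28 (SE 0.22) for DRAI+ minus WT and -0.05 (SE 0.21) for DRAI- minus WT.

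Among the 13 wider arrays alone, the Idh1 difference of DRAI+ mice was 0.07 both from DRAI- and from WT mice. The second Idh1 probeset ran parallel to the first over mice (r = 0.90) and gave 0.71 in DRAI+ against DRAI- (limma over all probesets, unadjusted p = 0.0143), and the smallest adjusted p of that probeset was 0.462. Most like Idh1 within genotypes were the folate hydrolase Ggh (r = 0.96), the mitochondrial ribosomal protein Mrpl33 (r = 0.96) and Tgds (r = 0.94).

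Idh2, the mitochondrial isocitrate dehydrogenase, separated the narrow arrays from the others. Its log2 level was 7.24 to 7.77 on the 5 narrow arrays and 7.77 to 8.29 on the other 13, with no overlap, a pattern that 5.28% of all genes show. In CCAT2-GT mice, none of them narrow, it was 7.77 at the lowest, 7.91 at the median and 8.09 at the highest. It was 7.24, 7.90, 8.07 and 8.29 in CCAT2-G replicates, 7.43, 7.56, 7.99 and 8.06 in CCAT2-T replicates and 7.52, 7.77, 7.84 and 7.79 in WT replicates. In each of the 3 groups that hold narrow arrays, the low values are those of the narrow ones. The difference was 0.19 (SE 0.17) for DRAI+ minus WT, 0.09 (SE 0.16) for DRAI- minus WT and 0.11 (SE 0.14) for DRAI+ minus DRAI-. A block for the narrow arrays gave -0.05, 0.03 and -0.08 in the same order. The second Idh2 probeset is dim (mean log2 level 4.14) and ran against the first over mice (r = -0.33). Most like Idh2 within genotypes were the tubulin cofactor Tbcb (r = 0.94), Tspan31 (r = 0.93) and Gosr2 (r = 0.93), and these values were 0.79, 0.76 and 0.80 among the wider arrays.

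Of 12 measured genes listed for isocitrate and 2-oxoglutarate metabolism, 0 passed in each comparison. The list also holds Sdha and Fh1, of later steps of the same cycle, which use neither compound. In DRAI+ against WT 10 were higher and 2 lower (median 0.16), with the 2-oxoglutarate dehydrogenase Ogdh at 0.26 (SE 0.20) and the cytosolic aconitase Aco1 at 0.35 (SE 0.29). In DRAI- against WT 2 were higher and 10 lower (median -0.08), with the NAD-dependent dehydrogenase subunit Idh3g at -0.20 (SE 0.16) and the succinate dehydrogenase subunit Sdha at -0.12 (SE 0.11). In DRAI+ against DRAI- 11 were higher and 1 lower (median 0.24). Aco1 averaged 7.77 ± 0.46 (SD, n = 6) in DRAI+ marrow, against 7.18 ± 0.53 (SD, n = 8) in DRAI- marrow, a difference of 0.59 (SE 0.24, limma, adjusted p = 0.486), and Ogdh differed by 0.35 (SE 0.17). No DRAI+ array was narrow, while 3 of the 8 DRAI- arrays were. All 9 monocyte and macrophage markers were higher in DRAI+ than in DRAI- mice (median 0.48), 5 at an unadjusted p under 0.05 (limma). All 9 megakaryocyte and platelet markers were also higher (median 0.95), 2 at an unadjusted p under 0.05. All 9 B-lineage markers were lower, 8 at an unadjusted p under 0.05. Of the 3 lists, 0 markers were past the threshold. Of all genes, 9.57% had an unadjusted p under 0.05 in this comparison and 48.3% were higher. Markers of 1 cell type are not independent of each other. The monocyte score was at 8.81 to 9.43 in DRAI+ and 7.93 to 9.40 in DRAI- mice. The part of the narrow arrays and of these cell types in the shift of the listed metabolic genes was not tested.

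Asxl1, the partner of the deubiquitinase BAP1, spread widely within every group. On the log2 scale it was 6.80 at the lowest, 7.16 at the median and 7.68 at the highest in CCAT2-GT mice, 6.55 to 7.37 in CCAT2-G, 6.88 to 7.85 in CCAT2-T and 6.78 to 7.72 in WT mice. The difference was 0.10 (SE 0.24) for DRAI+ minus WT, -0.05 (SE 0.23) for DRAI- minus WT and 0.14 (SE 0.20) for DRAI+ minus DRAI-. Of its 3 probesets, the second brightest followed the brightest (r = 0.77) and the dimmest, at a mean log2 level of 4.14, did not (r = -0.04). Most like Asxl1 within genotypes were Tmc4 (r = 0.95), Lins1 (r = 0.95) and Samd8 (r = 0.94).

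Bcor, the Polycomb corepressor, lies on the X chromosome. On the log2 scale it was 5.93 at the lowest, 6.52 at the median and 6.69 at the highest in CCAT2-GT mice, 6.34 to 6.56 in CCAT2-G, 6.32 to 6.88 in CCAT2-T and 6.33 to 7.05 in WT mice. The highest value was that of WT replicate 3 and the lowest that of CCAT2-GT replicate 6. Among CCAT2-GT mice it was 6.11 to 6.65 in the 3 with high Xist and 5.93 to 6.69 in the other 3, so both sets overlapped. The difference was -0.18 (SE 0.17) for DRAI+ minus WT, -0.08 (SE 0.16) for DRAI- minus WT and -0.10 (SE 0.14) for DRAI+ minus DRAI-. Without WT replicate 3 the first of these was -0.03. All 3 Bcor probesets had lower means in DRAI+ mice than in either other group. The dimmest differed by -0.41 in DRAI+ against DRAI- (limma over all probesets, unadjusted p = 0.00925) and its smallest adjusted p was 0.451. Most like Bcor within genotypes were Neurl1b (r = 0.93), Zmiz1 (r = 0.92) and Kmt2e (r = 0.90), a relative of Kmt2a.

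In the complexes around ASXL1 and BCOR, 0 of 14 measured genes passed in each comparison. In DRAI+ against WT 5 were higher and 9 lower (median -0.08), with the ubiquitin ligase Rnf2 (RING1B) averaging 7.64 ± 0.11 (SD, n = 6) in DRAI+ marrow, against 7.82 ± 0.04 (SD, n = 4) in WT marrow, and the O-GlcNAc transferase Ogt at -0.23 (SE 0.14). In DRAI- against WT 3 were higher and 11 lower (median -0.07), with Pcgf1 of the BCOR complex at -0.30 (SE 0.21) and Ring1 at 0.10 (SE 0.09). In DRAI+ against DRAI- 7 were higher and 7 lower (median 0.00697), with Rnf2 at -0.21 (SE 0.09, limma, adjusted p = 0.486) and Ogt at -0.19 (SE 0.11).

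Kmt2a, the H3 methyltransferase that is rearranged in infant and treatment-related leukaemia, had the most negative difference of the 10 genes in DRAI+ against DRAI-. Its log2 level was 6.35 at the lowest, 6.79 at the median and 7.15 at the highest in CCAT2-GT mice. It was 7.33, 7.05, 6.02 and 7.34 in CCAT2-G replicates, 7.18, 7.16, 7.44 and 7.55 in CCAT2-T replicates and 7.00, 7.29, 7.02 and 6.59 in WT replicates. CCAT2-G replicate 3 was the lowest of all mice and CCAT2-T replicate 4 the highest, and the ranges of the groups in each comparison overlapped. The difference was -0.35 (SE 0.19) in DRAI+ against DRAI-, with a 95% interval of -0.76 to 0.06 (limma, unadjusted p = 0.0867, adjusted p = 0.549). Without CCAT2-G replicate 3 it was -0.51, and with a B-lineage score as a covariate it was 0.00638.

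From WT mice, Kmt2a differed by -0.19 (SE 0.23) in DRAI+ mice and by 0.16 (SE 0.22) in DRAI- mice. The second Kmt2a probeset followed the first (r = 0.79) and gave -0.29, -0.06 and -0.23 for DRAI+ minus WT, DRAI- minus WT and DRAI+ minus DRAI-. Most like Kmt2a within genotypes were the histone demethylase Kdm2a (r = 0.89), Pqbp1 (r = 0.88) and Smarca4 (r = 0.87), the ATPase of the SWI/SNF remodelling complex.

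Of 18 measured genes of the KMT2 complexes and the fusion partners of MLL, 0 passed in each comparison. Between DRAI+ and WT mice 6 were higher and 12 lower (median -0.08), with the fusion partner Aff1 averaging 8.04 ± 0.19 (SD, n = 6) in DRAI+ marrow, against 8.36 ± 0.14 (SD, n = 4) in WT marrow, and Kmt2c at -0.23 (SE 0.11). Between DRAI- and WT mice 9 were higher and 9 lower (median -0.00903), with menin (Men1), which anchors KMT2A, at 0.24 (SE 0.11) and the fusion partner Mllt10 at -0.17 (SE 0.10). Between DRAI+ and DRAI- mice 6 were higher and 12 lower (median -0.07), with Aff1 at -0.23 (SE 0.10) and the methyltransferase Setd1a at -0.23 (SE 0.10).

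Among 7 measured target genes of KMT2A, 0 passed. Set against WT mice, in DRAI+ mice 3 were higher and 4 lower (median -0.02), with the homeobox gene Meis1 at 0.61 (SE 0.30) and Mef2c at -0.32 (SE 0.29). Set against WT mice, in DRAI- mice 6 were higher and 1 lower (median 0.11), with Pbx3 at -0.25 (SE 0.20) and Hoxa5 at 0.16 (SE 0.13). Set against DRAI- mice, in DRAI+ mice 2 were higher and 5 lower (median -0.07), and those 2 were Pbx3 at 0.37 (SE 0.18) and Meis1 at 0.50 (SE 0.25).

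The cohesin subunits Rad21 and Smc3 were among the steadier genes. Rad21, which closes the ring, was at 10.20 to 10.64 in CCAT2-GT (median 10.49), 10.35 to 10.56 in CCAT2-G, 10.23 to 10.72 in CCAT2-T and 10.26 to 10.74 in WT mice. Its difference was 0.03 (SE 0.12) for DRAI+ minus WT, 0.000926 (SE 0.11) for DRAI- minus WT and 0.03 (SE 0.10) for DRAI+ minus DRAI-. The dimmest Rad21 probeset, at a mean log2 level of 7.51, gave 0.34 in the last comparison, while the second gave -0.08. Smc3, an ATPase arm of the ring, was at 8.46 at the lowest, 8.57 at the median and 8.79 at the highest in CCAT2-GT mice, 8.47 to 8.83 in CCAT2-G, 8.56 to 8.84 in CCAT2-T and 8.53 to 8.91 in WT mice. The difference was -0.12 (SE 0.10) for DRAI+ minus WT, -0.05 (SE 0.10) for DRAI- minus WT and -0.07 (SE 0.09) for DRAI+ minus DRAI-. Most like Rad21 within genotypes were Pbrm1 (r = 0.89), the condensin subunit Ncapd3 (r = 0.87) and Slc16a6 (r = 0.86), and most like Smc3 were the kinetochore gene Ska2 (r = 0.89), Dnajc9 (r = 0.88) and Fam133b (r = 0.87).

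Of 15 other measured cohesin genes, loaders and regulators, 0 passed in each comparison. Between DRAI+ and WT mice 2 were higher and 13 lower (median -0.10), with the SMC3 acetyltransferase Esco1 averaging 8.16 ± 0.09 (SD, n = 6) in DRAI+ marrow, against 8.38 ± 0.08 (SD, n = 4) in WT marrow, and the meiotic subunit Rec8 at 0.31 (SE 0.18). Between DRAI- and WT mice 4 were higher and 11 lower (median -0.06), with Rec8 at 0.20 (SE 0.17) and the release factor Wapl at -0.15 (SE 0.14). Rec8 was dim, with mean log2 levels of 4.49 in DRAI+, 4.37 in DRAI- and 4.18 in WT mice. Between DRAI+ and DRAI- mice 7 were higher and 8 lower (median -0.02). There Esco1 differed by -0.26 (SE 0.09, limma, unadjusted p = 0.00846, adjusted p = 0.456) and Pds5b, a regulator of ring release, by -0.37 (SE 0.14).

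Ctcf, the insulator protein that stops loop extrusion, was the gene counted in DRAI+ against WT before adjustment. Its log2 level was 8.85 at the lowest, 9.05 at the median and 9.14 at the highest in CCAT2-GT mice. It was 9.32, 9.26, 8.95 and 9.14 in CCAT2-G replicates, 9.09, 9.05, 9.19 and 9.41 in CCAT2-T replicates and 9.25, 9.12, 9.35 and 9.24 in WT replicates. All 6 DRAI+ mice lay below the mean of the WT mice and below that of the DRAI- mice, and WT replicate 2 lay within the range of the DRAI+ mice. The difference was -0.22 (SE 0.10) in DRAI+ against WT, 0.859-fold, with a 95% interval of -0.43 to -0.00497 (limma, unadjusted p = 0.0454, adjusted p = 1.00). It was -0.15 (SE 0.09) in DRAI+ against DRAI- and -0.06 (SE 0.10) in DRAI- against WT.

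The second Ctcf probeset, nearly as bright, gave -0.15 in DRAI+ against WT, -0.19 in DRAI+ against DRAI- and 0.04 in DRAI- against WT, and its r with the first over mice was 0.46. In the 29 other settings tried, the DRAI+ against WT difference of Ctcf lay between -0.27 and -0.14, and the unadjusted p was under 0.05 in 12 of the 29 (range 0.0294 to 0.191). Median centring, for example, gave an unadjusted p of 0.0729 and a fit of every probeset 0.0555 (limma). Most like Ctcf within genotypes were Mindy2 (r = 0.85), the Polycomb methyltransferase Ezh2 (r = 0.79) and Gid4 (r = 0.78). Of 5 measured partners of CTCF, 0 passed. All 5 lay lower in DRAI+ mice than in WT (median -0.12), with the looping factor Ldb1 at -0.23 (SE 0.17) and the chromatin organiser Satb1 at -0.23 (SE 0.20). At an unadjusted p under 0.05 it was 0 of 5 (limma), and 49.5% of all genes were higher in that comparison. Set against WT mice, in DRAI- mice 3 were higher and 2 lower (median 0.05), with Maz at 0.14 (SE 0.17) and Chd8 at 0.08 (SE 0.13). Set against DRAI- mice, in DRAI+ mice all 5 were lower (median -0.20), with Chd8 at -0.20 (SE 0.12) and Satb1 at -0.28 (SE 0.17). Again 0 of 5 had an unadjusted p under 0.05 (limma), and 48.3% of all genes were higher. All 9 B-lineage markers were lower in DRAI+ mice too (median -1.38 against WT and -1.44 against DRAI- mice). The part of cell makeup in the values of the 5 partners was not tested.

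**Figure D3:**
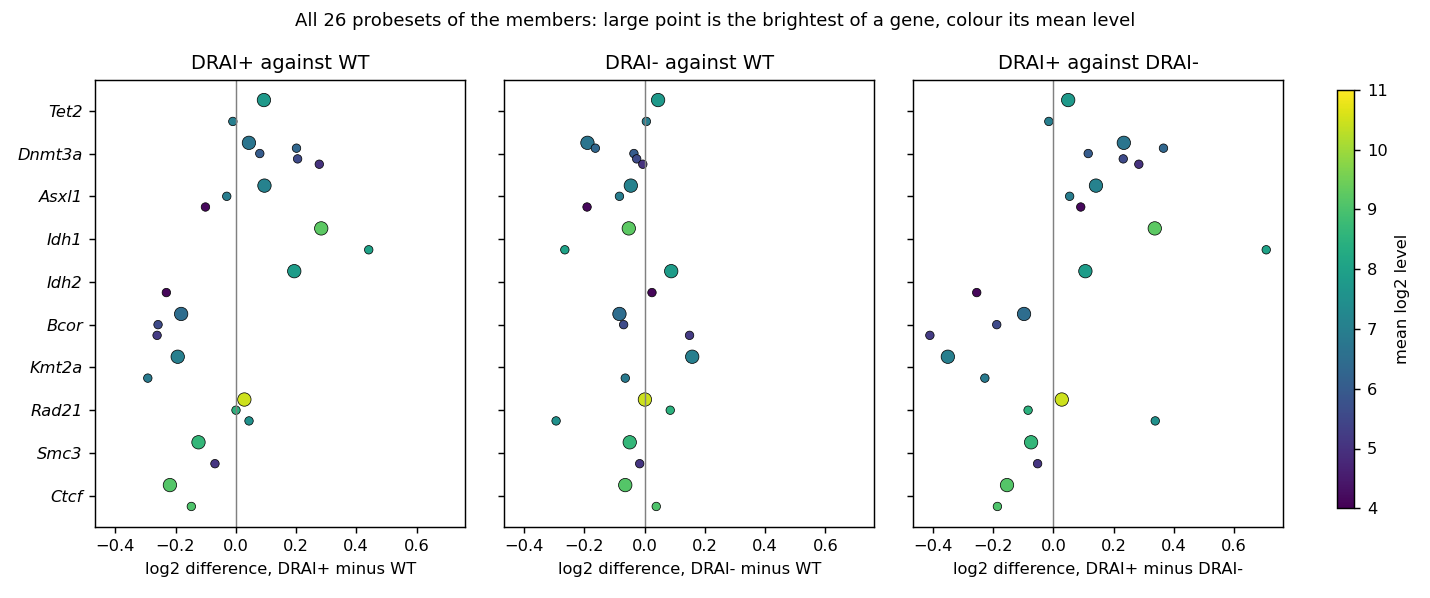
Log2 differences of all 26 probesets of the 10 genes in DRAI+ minus WT, DRAI- minus WT and DRAI+ minus DRAI- mice; the large point is the brightest probeset of a gene and colour is its mean log2 level. The 5 Dnmt3a probesets share a side in each panel, and the brighter and the dim Idh2 probesets (mean log2 levels 7.83 and 4.14) lie on opposite sides in DRAI+ minus WT and DRAI+ minus DRAI-.

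The alleles were set against each other and against WT in a fit with 4 genotypes. In CCAT2-G against CCAT2-T 0 of the 10 genes passed, as did 0% of all 14505, and at an unadjusted p under 0.05 it was 0 of 10, against 6.29% of all genes (912 genes). Asxl1 differed most, by -0.44 (SE 0.25, limma, unadjusted p = 0.103, adjusted p = 0.789), followed by Kmt2a at -0.40 (SE 0.24) and Dnmt3a at 0.37 (SE 0.35). Without CCAT2-G replicate 3 the Kmt2a value was -0.10, and without CCAT2-T replicate 3 the Asxl1 value was -0.24. Dnmt3a averaged 6.78 ± 0.40 (SD, n = 4) in CCAT2-G mice and 6.41 ± 0.06 (SD, n = 4) in CCAT2-T mice. Of the megakaryocyte and platelet markers 9 of 9 (median 1.23), and of the stroma, bone and endothelium markers 10 of 10 (median 0.70), were higher in CCAT2-G than in CCAT2-T mice, 0 of them past the threshold. The stroma score was at 5.38 to 6.65 in CCAT2-G and 4.29 to 6.14 in CCAT2-T mice, and with it as a covariate the Dnmt3a difference was 0.04. The megakaryocyte score was at 7.50 to 8.88 in CCAT2-G and 6.15 to 7.31 in CCAT2-T mice, and its part in the difference was not tested. The other 7 genes differed by -0.20 to 0.11. Of the 10, 2 were higher in CCAT2-G than in CCAT2-T mice (49.4% of all genes were), and the ranges of both groups overlapped for all 10, while they did not for 2.29% of all genes.

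Against WT mice neither allele gave a call among the 10 genes or among all genes (0% in both comparisons). At an unadjusted p under 0.05 it was 0 of 10 in CCAT2-G against WT, against 1.57% of all genes (228 genes), and 0 of 10 in CCAT2-T against WT, against 3.11% (451 genes). In CCAT2-G against WT the differences lay between -0.26 (SE 0.25), for Asxl1, and 0.15 (SE 0.19), for Idh2. The Asxl1 value was -0.06 without WT replicate 3 and -0.51 among the wider arrays, and the Idh2 value was 0.36 without CCAT2-G replicate 1 and 0.00629 without CCAT2-G replicate 4. In CCAT2-T against WT they lay between -0.38 (SE 0.35), for Dnmt3a, and 0.36 (SE 0.24), for Kmt2a, whose 4 CCAT2-T values were all above the WT mean. With the stroma score as a covariate the Dnmt3a value was -0.09. The Kmt2a value was 0.09 with array weights and 0.69 among the wider arrays. Higher than in WT mice were 1 of the 10 genes in CCAT2-G mice (53.2% of all genes) and 6 in CCAT2-T mice (50.5%). Ranges overlapped for all 10 in both, while they did not for 0.882% and 1.69% of all genes.

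The genes differed in how much they varied between mice of a genotype. The SD within genotypes was 0.54 log2 units for Dnmt3a, the largest of the 10, and 0.37 to 0.39 for Asxl1, Idh1 and Kmt2a, larger than in 85.6 to 87.2% of the genes tested. It was 0.27 for Tet2, Idh2 and Bcor, where the median gene had 0.23. Rad21 had 0.18, Ctcf 0.14 and Smc3 0.13, and only 5.65% of genes varied less than Smc3. The widest range over all 18 mice, 1.95 log2 units, was that of Dnmt3a and the narrowest, 0.46, that of Smc3.

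Within genotypes, several of the genes moved together over mice. These correlations are descriptions over the same 18 arrays, whose narrow arrays and cell makeup all genes share. The highest were Idh1 with Idh2 (r = 0.75), Tet2 with Idh1 (r = 0.73), Asxl1 with Idh1 (r = 0.71) and Tet2 with Asxl1 (r = 0.70). Among the 13 wider arrays they were 0.11, 0.56, 0.53 and 0.52. Smc3 with Ctcf had r = 0.59 over 18 arrays and 0.64 among the wider ones. Dnmt3a had r of -0.40 with Asxl1, -0.25 with Tet2 and -0.17 with Idh1, but 0.25 with Idh2, which was 0.48 among the wider arrays.

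**Figure D4:**
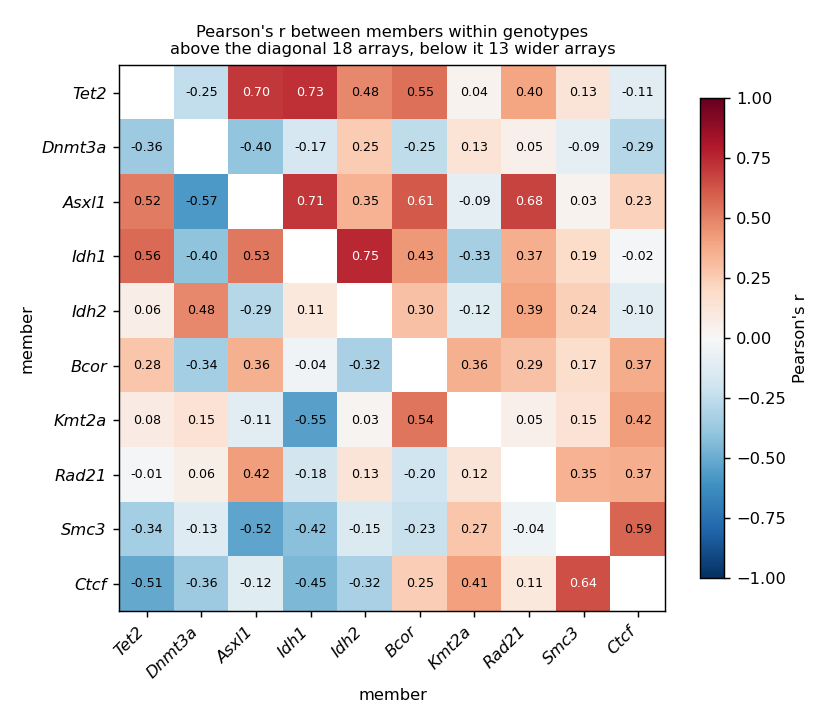
Pearson's r between the 10 genes after subtracting genotype means, above the diagonal over 18 arrays and below it over the 13 wider arrays. Idh1 with Idh2 is at 0.75 above and 0.11 below the diagonal, and Smc3 with Ctcf at 0.59 and 0.64.

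The levels were then set beside marker scores of marrow cell types, each the mean log2 level of 8 to 11 marker genes in a mouse. Unlike the correlations above, genotype means were not subtracted here, and mice were permuted across genotypes. Differences between genotypes therefore enter r, and the p-values are not for relations within genotypes. Of 90 relations (10 genes with 9 scores, permutation tests with 100000 resamples, two-sided, Benjamini-Hochberg over the 90), 7 had an adjusted p under 0.05 for Pearson's r and 5 for both Pearson's r and Spearman's rho. Dnmt3a followed the megakaryocyte and platelet score most closely (r = 0.91, permutation p = 2.0e-05, adjusted p = 0.0018; rho = 0.82, permutation p = 0.00014, adjusted p = 0.0126). The r was 0.76 without the 2 mice farthest from the median score, 0.92 among the 13 wider arrays, and 0.83 to 0.93 for the 5 Dnmt3a probesets. A relation at least as strong was found in 0.814% of all genes. The score was 10.7 and 10.4 in CCAT2-GT replicates 4 and 6, which had the highest Dnmt3a. All 9 measured markers of this score were higher in DRAI+ than in DRAI- mice (median 0.95, 0 past the threshold). Its part in the Dnmt3a difference between these groups was not tested. Dnmt3a also followed the stroma, bone and endothelium score (r = 0.77, permutation p = 0.00021, adjusted p = 0.0063; rho = 0.73, permutation p = 0.00098, adjusted p = 0.0189), a relation that 3.76% of all genes matched or exceeded, and the 2 scores run together (r = 0.86).

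Idh1 was lower where B-lineage markers were higher (r = -0.74, permutation p = 0.00052, adjusted p = 0.00936; rho = -0.74, permutation p = 0.00075, adjusted p = 0.0189). The r was -0.70 without the 2 farthest mice and -0.55 among the wider arrays. The B-lineage score was at 5.29 to 7.43 in DRAI+ mice, 5.74 to 8.70 in DRAI- mice and 6.61 to 8.61 in WT mice, and all 9 of its measured markers were lower in DRAI+ than in DRAI- mice (median -1.44, 0 past the threshold). With that score as a covariate, the Idh1 difference of DRAI+ against DRAI- was -0.03. Kmt2a ran the other way, higher with the B-lineage score (r = 0.69, permutation p = 0.00125, adjusted p = 0.0187; rho = 0.64, permutation p = 0.00507, adjusted p = 0.0570), at 0.60 without the 2 farthest mice and 0.66 among the wider arrays. Relations this strong with the B-lineage score are common, in 7.62% of all genes for Idh1 and 12.4% for Kmt2a. The part of B cells in the differences of Idh1 and Kmt2a was not tested further.

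Idh2 followed the monocyte and macrophage score (r = 0.79, permutation p = 8.0e-05, adjusted p = 0.0036; rho = 0.71, permutation p = 0.00144, adjusted p = 0.0216), and so did Idh1 (r = 0.69, permutation p = 0.00158, adjusted p = 0.0203; rho = 0.55, permutation p = 0.0197, adjusted p = 0.121). Relations at least as strong were found in 1.41% of all genes for Idh2 and 7.73% for Idh1. Without the 2 farthest mice r was 0.75 and 0.60. Among the 13 wider arrays it was 0.45 for Idh2 and 0.16 for Idh1, smaller for both than over all 18 arrays. No test was made within the wider arrays, and the 5 narrow arrays are too few for a value of their own. The dim second Idh2 probeset went the other way with the monocyte and macrophage score (r = -0.60). The second Idh1 probeset went the same way as the first (r = 0.78). The score averaged 9.13 ± 0.23 (SD, n = 6) in DRAI+ mice, 8.62 ± 0.53 (SD, n = 8) in DRAI- mice and 8.58 ± 0.29 (SD, n = 4) in WT mice, and its part in the Idh1 and Idh2 differences was not tested. Asxl1 was lower where the stroma, bone and endothelium score was higher (r = -0.73, permutation p = 0.00043, adjusted p = 0.00936; rho = -0.72, permutation p = 0.00105, adjusted p = 0.0189), at -0.69 without the 2 farthest mice and -0.78 among the wider arrays, and 5.23% of all genes had a relation as strong. The dimmest Asxl1 probeset did not share this (r = -0.05). Bcor and the stem and progenitor score passed by rank alone (rho = 0.73, permutation p = 0.00091, adjusted p = 0.0189; r = 0.61, permutation p = 0.00722, adjusted p = 0.0722).

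**Figure D5:**
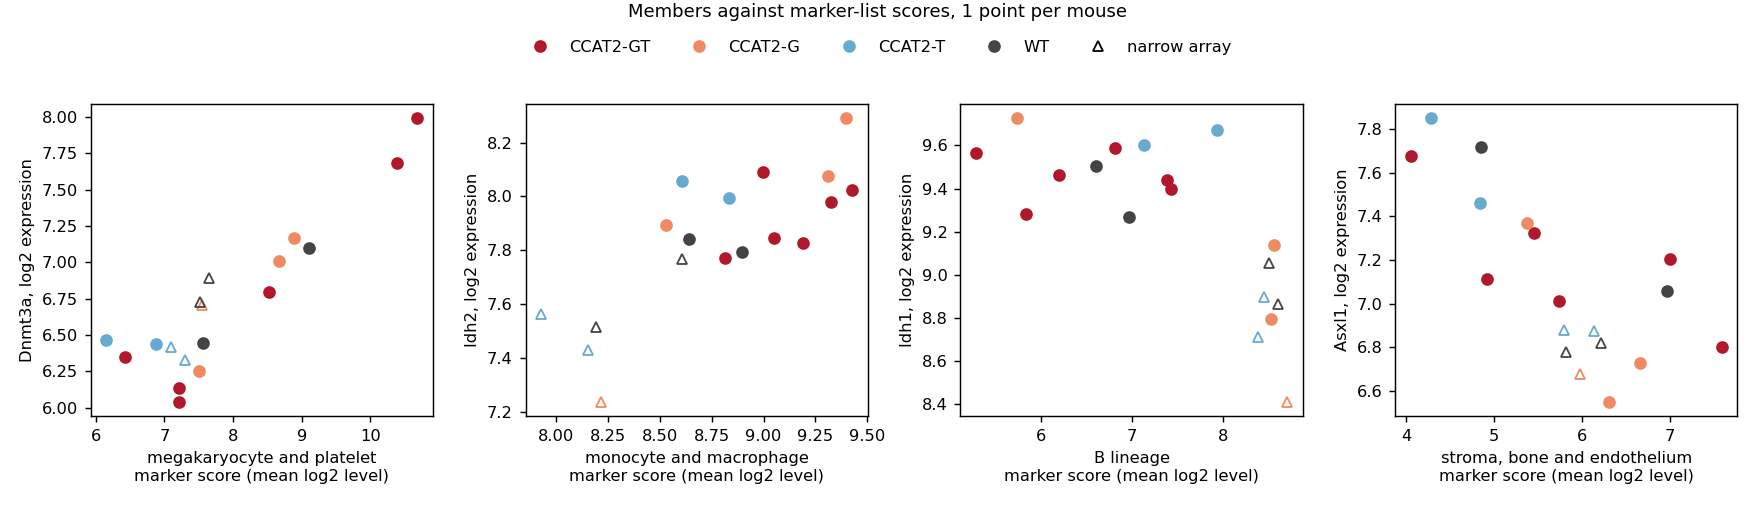
Log2 expression of Dnmt3a, Idh2, Idh1 and Asxl1 (y) against a marker score, the mean log2 level of a cell type's marker genes (x), 1 point per mouse, coloured by genotype, with open triangles for narrow arrays. Dnmt3a is higher with a higher megakaryocyte and platelet score (r = 0.91), and the narrow arrays lie at low Idh2 and low monocyte and macrophage scores.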

How the data were processed

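The deposited table holds log2 values of 45101 probesets, made by the authors with RMA per the submitters' processing notes, without version, software or probe definitions. That they are on a log2 scale follows from their range, 1.56 to 14.2, with array medians of 4.27 to 4.40. Arrays give no read depth, so their number limits the precision. Groups came from the titles; whether replicates share litters or cages is not stated, so p-values measure the spread between these mice.

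Probesets were named by the platform annotation (34958 with 1 symbol, 932 with several, 9211 with none listed). The brightest stood for a gene, and genes under the 30th percentile of probeset means (log2 3.30) were left out, which kept 14505 genes and all 10 described here. limma 3.58.1 (R 4.3.3) fitted all 18 arrays together, with a mean-variance trend, as 3 groups or, for the alleles, as 4 genotypes, at an adjusted p of 0.05 (Benjamini-Hochberg over all genes), after a test on simulated data. Of 96 listed partner genes 83 were tested. The rule for names took the 10 genes always, from each partner list the 2 of smallest p in each comparison of DRAI+, DRAI- and WT, and for each gene the 3 of highest within-genotype Pearson's r. Genes, lists and alternatives were chosen with earlier results of these data known. Alternatives changed the scaling, filter, probeset rule, variance model, weights, covariates, blocks and the mice included. Replicate numbers recur across genotypes and no label says what they mark. Deviations of same-numbered mice correlated above 0.1 in all 4 pairs of CCAT2-T and WT (0.19 to 0.57). In the other pairs of genotypes at most 3 of 4 did so. Mice 1 and 2 of both CCAT2-T and WT are narrow arrays, so a pairing by number and the shared narrow spread cannot be told apart. A block for the replicate number was therefore run only as an alternative.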

Additional observations from a re-analysis of the deposited data

Results flagged for a closer look

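Tet2 in CCAT2-GT replicate 6 was at a log2 level of 7.28, with the nearest of the other 5 CCAT2-GT mice at 7.76, a gap of 0.677 of the group's range. It was the only mouse that stood apart among the 40 groups of values checked (10 genes in 4 genotypes), and chance flags about 1 in 20. The same mouse had the lowest Bcor of all, 5.93, and the highest stroma, bone and endothelium score, 7.59. Without it the Tet2 difference in DRAI+ against WT was 0.20, against 0.09 with all mice.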

How the results depend on the processing

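In the 19 other settings run for DRAI+, DRAI- and WT and the 18 run for the alleles, and with each mouse of the 2 groups compared left out in turn (8 to 14 mice), 0 of the 10 genes passed. Over all genes, 456 passed in DRAI+ against WT with array weights, where WT replicate 2 counted 4.50 and WT replicate 4 counted 0.385, and 0 of the 10 genes were among them. In DRAI+ against DRAI- 2 probesets passed with every probeset tested, and with a mouse left out 0 to 7 genes passed (7 without CCAT2-G replicate 3). In CCAT2-G against CCAT2-T 1 gene passed with quantile normalization, 1 with a filter at the 50th percentile, and 0 to 1 with a mouse left out (1 without CCAT2-T replicate 1). The causes were not tested. Of 1710 recomputed differences of the 10 genes, 189 had the other sign, none of them called in either setting, and 4 moved by more than the SD between mice. Of the 60 differences in the main fits, 44 changed sign in at least 1 setting. The 1710 include settings that cannot change a difference. Smc3 and Ctcf kept a negative difference in all 29 settings of DRAI+ against WT and all 33 of DRAI+ against DRAI-. Some of these settings, such as the filters and variance models, cannot change a difference, and the others reuse the same mice. These counts are therefore not independent repeats. With the replicate block 0 of the 10 genes and 0 of all genes passed in each comparison, and Ctcf differed by -0.25 in DRAI+ against WT. Replicate numbers 5 and 6 occur only in CCAT2-GT, so with the block those mice add nothing to the differences. Same-numbered CCAT2-GT mice had 1 of 4 correlations above 0.1 with WT and 0 of 4 with CCAT2-T. No call changed with the block in CCAT2-T against WT, the comparison with all 4 correlations above 0.1. There the adjusted p of the 10 genes was 0.807 to 0.984 (limma).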
